A study of Helianthus annuus with 180 samples.

Results

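Stems of solar tracking sunflowers were compared between dawn and Zeitgeber Time 4 (ZT4, 4 hours after dawn), over all genes of the genome annotation. The 12 field libraries labelled ZT4 or its repeat on the second day were set against the 12 field libraries labelled ZT0 or its repeat, with both sides of the stem combined. These 24 libraries are part of 72 field libraries and of 180 libraries in the whole series, of which the others followed chamber-grown plants as they bent in blue light. The study asked which genes differ in expression across bending stems, and the field plants were sampled every 4 hours over 48 hours. All field plants were wild-type Helianthus annuus of the inbred line HA412-HO, about 2 weeks old, germinated in flats and transplanted to the field within days, where they were tracking the sun. No mutant, transgene or treatment was involved. Each library held RNA of peels from the east or the west side of the first internode (tissue made of epidermis, cortex and vascular cells), with 2 peels pooled per library. Each time point on each day had 3 east and 3 west libraries, and the 2 sides were taken from the same 6 plants. Dawn samples were thus 12 libraries, 6 of day 1 (ZT0) and 6 of day 2 (ZT24), and so were ZT4 samples, with ZT4 on day 1 and ZT28 on day 2.

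The plant circadian clock is a set of transcriptional regulators that repress or activate each other in turn. In Arabidopsis, the MYB factors LHY and CCA1 peak around dawn and repress evening genes, the PSEUDO-RESPONSE REGULATORS (PRRs) follow one another through the day and repress LHY and CCA1, and the evening complex of ELF3, ELF4 and LUX acts around dusk and in the night. Sunrise also starts responses to light and warmth: light receptors activate HY5 and genes of photosynthesis and of sunscreen flavonoids, and sunlight warms the tissue. By dawn, Arabidopsis leaves have largely used up the starch made on the day before. Stem elongation depends on auxin, brassinosteroid and gibberellin and on enzymes that loosen the cell wall. Gene names below are those of the closest Arabidopsis protein, written as in LHY-like, so that a stated function is that of the Arabidopsis gene.

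Library totals ranged from 5.67 M to 30.8 M estimated counts (M, 1000000 counts), with a median of 17.1 M. Values below are counts per 1000000 counts of the library (CPM) after TMM scaling, whose factors lay between 0.954 and 1.043. The first principal component, with 27.8% of the variance, separated all dawn libraries from all ZT4 libraries. Spearman correlations between libraries were 0.975 to 0.990 within a group and 0.940 to 0.963 between dawn and ZT4. The east ZT24 library of replicate 3, the shallowest, and the west ZT28 library of replicate 1 stood apart from the others on components 3 and 4. Because the libraries are pools of plants sampled on 2 days, p-values measure the spread between these libraries and not between seasons or sites. The main fit counts east and west libraries as separate, although both sides of a time point came from the same plants. East and west libraries of the same number had an estimated correlation of 0.234, so SEs and p-values of the main fit can be too small. In whole peels, fewer cells of a type and less RNA per cell cannot be told apart.

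Of 32705 genes tested, 9025 were higher at ZT4 (27.6%) and 8966 were lower (27.4%) at an adjusted p under 0.05. Adjusted p-values are Benjamini-Hochberg values of edgeR's quasi-likelihood test over all tested genes, with side and day as terms. Most changes were small, with a median size of 0.47 on the log2 scale among the called genes. A change of at least 2-fold was called for 1128 genes that rose (3.45%) and 1452 that fell (4.44%), and one of over 4-fold for 192 and 219 genes. For 1867 genes (5.71%) every ZT4 library lay above every dawn library, and for 1770 genes (5.41%) every one lay below. With the east and west libraries of one number summed, which leaves 6 samples against 6, 7944 genes rose and 7989 fell. Scaling by library totals alone moved the counts to 7769 and 10185. Among the 9828 tested genes that carried an Arabidopsis name, the background against which the lists below are read, 28.2% rose and 33.0% fell.

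The morning genes of the clock were split. All 12 homologs on the list changed, 6 up and 6 down. LHY-like (Ha412HOChr15g0736201), a core repressor of the clock, was at 755, 817 and 926 CPM (lowest, median and highest of 12 libraries) at dawn and at 201, 245 and 275 CPM at ZT4. It fell by 1.77 on the log2 scale (SE 0.048, adjusted p = 2.78e-20), and no ZT4 library reached the lowest dawn value. A second LHY-like gene (Ha412HOChr15g0736221) went from 82.7, 91.9 and 105 CPM to 7.99, 10.3 and 12.7 CPM, and its fall of 3.17 (SE 0.060, adjusted p = 2.04e-23) was the larger. RVE8-like (Ha412HOChr07g0311811), an activator related to LHY, also fell, from a median of 178 CPM to 105 CPM (log2 fold change -0.72), without overlap between the times. The other RVE8-like gene (Ha412HOChr14g0679651) rose slightly, by 0.21, with ranges that overlapped. Among 3 RVE6 homologs, one rose (Ha412HOChr16g0792081, 0.58) and the others fell (Ha412HOChr09g0395701, -1.34, and Ha412HOChr14g0692291, -0.51). RVE1-like (Ha412HOChr15g0724381), which in Arabidopsis links the clock to auxin, fell by 0.60.

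The LNK genes, coactivators that RVE proteins recruit to daytime promoters, moved the opposite way from LHY. LNK1-like (Ha412HOChr03g0107981, closest to AT5G64170) was at 5.58, 7.16 and 10.6 CPM at dawn and at 209, 236 and 275 CPM at ZT4. The rise was 31.2-fold (log2 fold change 4.96, SE 0.082, adjusted p = 1.70e-24). The other LNK1-like genes rose in the same way, Ha412HOChr16g0775901 by 5.05 from a median of 0.778 CPM and Ha412HOChr09g0387701 by 3.16 from a median of 3.56 CPM. LNK2-like (Ha412HOChr01g0005621, closest to AT3G54500) rose by 1.54, from a median of 30.7 CPM to 85.1 CPM. For each of these 4 genes all ZT4 libraries lay above all dawn libraries.

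Among the day and evening genes of the clock, 7 of 13 rose (53.8%) and 5 fell (38.5%). The shares of all named genes tested were 28.2% and 33.0%. The PRR7 and PRR3 homologs rose and the homologs of PRR5, TOC1 and ELF3 fell. PRR7-like (Ha412HOChr14g0679591), a morning and midday repressor of LHY and CCA1, was at 0.270, 0.467 and 1.03 CPM at dawn and at 26.8, 29.8 and 35.1 CPM at ZT4. This was a rise of 5.91 on the log2 scale (SE 0.110, adjusted p = 2.04e-23). Ha412HOChr01g0042171 and Ha412HOChr08g0341571, also PRR7-like, rose by 2.98 and 3.13. The remaining PRR7-like gene (Ha412HOChr01g0042161) had a median of 0 CPM at dawn and 2.16 CPM at ZT4 and was at 0 in some libraries of both times, so no fold is given. Estimated counts can be divided wrongly between genes of similar sequence, which would make the values of single copies uncertain. The sequences of these genes were not compared. PRR3-like (Ha412HOChr07g0319851) rose from a median of 0.965 CPM to 58.2 CPM (log2 fold change 5.88, SE 0.132), and Ha412HOChr14g0684881 from 1.63 to 23.5 CPM (3.88, SE 0.080). JMJD5-like (Ha412HOChr02g0088161), a histone demethylase that affects clock period, rose by 1.70.

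TOC1-like (Ha412HOChr02g0065721), the evening PRR, was at 11.7, 14.9 and 18.2 CPM at dawn and at 2.74, 3.63 and 4.50 CPM at ZT4. All ZT4 libraries lay below the dawn libraries, and the fall was 2.03 (SE 0.088, adjusted p = 4.61e-16). PRR5-like (Ha412HOChr08g0350221) fell by 0.79, from a median of 6.90 CPM to 3.97 CPM, with some overlap. ELF3-like (Ha412HOChr07g0293611), the scaffold of the evening complex, dropped from 40.2, 45.2 and 53.6 CPM to 7.50, 8.73 and 10.2 CPM (log2 fold change -2.39, SE 0.058, adjusted p = 3.13e-21), and Ha412HOChr02g0074131 fell by 1.36. The third ELF3-like gene (Ha412HOChr08g0369341) stayed near 1 CPM, and its call (log2 fold change -0.56, adjusted p = 0.0491) was lost when any one of 18 libraries was left out. LUX-like (Ha412HOChr08g0371471), also near 1 CPM, did not pass the test (-0.12, adjusted p = 0.511).

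**Figure D1:**
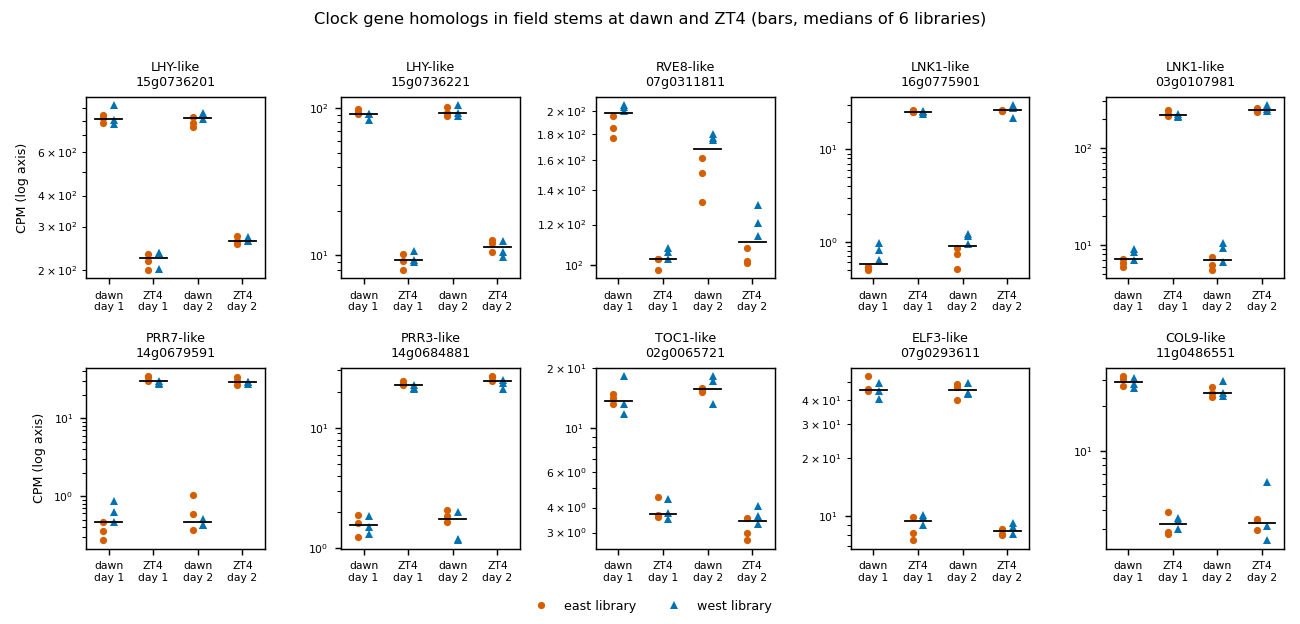
CPM on log axes of 10 clock gene homologs in each of the 24 libraries, by time and day (circles, east libraries; triangles, west libraries; bars, medians of 6 libraries; gene IDs without the prefix Ha412HOChr). LNK1, PRR7 and PRR3 homologs lie higher at ZT4 and LHY, RVE8, TOC1, ELF3 and COL9 homologs lower on both days; RVE8-like fell further on day 1 (-0.91) than on day 2 (-0.53).

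Cycling DOF factors (CDFs) repress CONSTANS and with it flowering in Arabidopsis, and CONSTANS-like (COL) proteins are zinc finger regulators with daily rhythms. All 9 homologs changed, 3 up (33.3%) and 6 down (66.7%), against 28.2% and 33.0% of all named genes tested. COL2-like (Ha412HOChr14g0673251) was at 377, 432 and 508 CPM at dawn and at 120, 143 and 161 CPM at ZT4, and fell by 1.62 (SE 0.058, adjusted p = 7.33e-18). COL9-like (Ha412HOChr11g0486551), a repressor of flowering, fell further, 8.03-fold, from a median of 27 CPM to 3.29 CPM. A second COL9-like gene, Ha412HOChr12g0560721, was near 1 CPM at dawn and fell by 1.83. CDF2-like (Ha412HOChr08g0330581) and CDF3-like (Ha412HOChr09g0420861) fell by 1.96 and 1.14. The CDF1 homologs went opposite ways: Ha412HOChr05g0235011 rose by 2.10, from a median of 4.24 CPM to 18 CPM, and Ha412HOChr16g0753881, with a median of 1.28 CPM at dawn, fell by 1.97. COL3-like (Ha412HOChr06g0268991), a positive regulator of light responses, and COL5-like (Ha412HOChr12g0534721) rose by 1.41 and 0.73.

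Of 34 tested homologs of photoreceptors and light signaling genes, 9 rose (26.5%) and 16 fell (47.1%), with a median log2 fold change of -0.14. The shares of all named genes tested were 28.2% and 33.0%, so the share that rose was near the background. HY5-like (Ha412HOChr13g0604031), the bZIP factor that promotes light responses downstream of the photoreceptors, showed the largest rise. It was at 0.978, 3.10 and 8.14 CPM at dawn and at 43.5, 90.5 and 125 CPM at ZT4, without overlap. The log2 fold change was 4.62 (SE 0.190, adjusted p = 1.33e-16), and Ha412HOChr02g0080481, also HY5-like, rose by 1.64. RPT2-like (Ha412HOChr08g0357441), which acts with phototropins in bending towards light, was at 651, 735 and 963 CPM at dawn and at 94.6, 114 and 154 CPM at ZT4. It fell by 2.72 (SE 0.079, adjusted p = 1.07e-19). CRY1-like (Ha412HOChr05g0221241), a blue light receptor, went from a median of 218 CPM to 71.6 CPM (-1.63, SE 0.053), again without overlap. PIF3-like (Ha412HOChr16g0774391), a bHLH factor degraded in response to active phytochrome, rose by 1.23. Smaller falls were called for PHOT1-like (Ha412HOChr01g0015871, -0.63), PHYB-like (Ha412HOChr02g0079361, -0.42) and SPA4-like (Ha412HOChr10g0462151, -0.81), a partner of the light repressor COP1. The call of PHOT1-like was lost in the fit over all 72 field libraries (adjusted p = 0.0897) and in fits on day 1 or the east side alone. That of PHYB-like was lost in fits on either day alone and on the west side alone (-0.04, adjusted p = 0.838). The UV-B receptor UVR8-like (Ha412HOChr10g0453161) rose slightly, by 0.22, and was not called on day 1 or in the east alone.

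Photoprotection and flavonoid genes mostly rose: 29 of 40 homologs were higher at ZT4 and 6 were lower, with a median of 0.56, and 17 rose at least 2-fold. CHS-like (Ha412HOChr14g0662571), chalcone synthase at the entry to flavonoid synthesis, was at 69.6, 94.2 and 115 CPM at dawn and at 198, 230 and 296 CPM at ZT4. It rose by 1.34 (SE 0.065, adjusted p = 4.06e-15) without overlap. UGT78D2-like (Ha412HOChr08g0360391), which adds glucose to flavonoids, rose by 2.69, from a median of 5.53 CPM to 36.6 CPM, and C4H-like (Ha412HOChr08g0357311), an earlier enzyme of the phenylpropanoid pathway, by 1.46. All 4 homologs of the flavonol regulator MYB12 rose, by 0.34 to 1.33. UVR3-like (Ha412HOChr09g0426881), a photolyase that repairs UV damage in DNA, rose from 9.93, 12 and 16.6 CPM to 38.8, 67.5 and 91.8 CPM (2.32, SE 0.102, adjusted p = 5.74e-16). The PAL1 homologs, which feed phenylalanine into the whole pathway, were divided: 3 of 6 rose and 3 fell. The most abundant of those that fell, Ha412HOChr07g0311091, went from a median of 451 CPM to 269 CPM (-0.75). Early light-inducible proteins (ELIPs) bind chlorophyll under strong light, and their homologs differed among themselves. ELIP1-like Ha412HOChr03g0133781 rose by 1.58, ELIP2-like Ha412HOChr03g0133761 fell by 0.91, and the abundant ELIP1-like Ha412HOChr03g0133811 did not pass the test (0.07, adjusted p = 0.477). These genes lie close together by their IDs and may share reads.

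Genes of the light harvesting complexes and photosystems were higher at ZT4 for 24 of 36 homologs (66.7%) and lower for 4 (11.1%). The shares of all named genes tested were 28.2% and 33.0%, and the list median was 0.45. The summed level of the list was 2000, 2440 and 2820 CPM at dawn and 3620, 4390 and 5080 CPM at ZT4. Thus the lowest ZT4 library lay above the highest dawn library. LHCB6-like (Ha412HOChr03g0108001), a minor antenna protein of photosystem II, was at 0.521, 3.69 and 9.16 CPM at dawn and at 66.6, 86.1 and 115 CPM at ZT4. The rise was 4.45 (SE 0.216, adjusted p = 4.01e-15). LHB1B1-like (Ha412HOChr01g0026141) and CAB1-like (Ha412HOChr04g0187831), of the major antenna, rose by 3.34 and 2.56, and LHCA4-like (Ha412HOChr05g0234991) and PSAD-2-like (Ha412HOChr03g0135941), of photosystem I, by 2.20 and 2.49. The chloroplast-type gene PSBC-like (Ha412HOChr02g0064991), the most abundant of the list, was not called (0.17, adjusted p = 0.0826). Of 9 homologs for chlorophyll synthesis, 6 rose (66.7%) and 1 fell (11.1%). PORC-like (Ha412HOChr15g0716091), which makes chlorophyllide in the light, went from 33.5, 37.3 and 41.7 CPM to 119, 148 and 168 CPM (1.97, SE 0.048), and GUN5-like (Ha412HOChr10g0446421), a subunit of magnesium chelatase, rose by 1.59. HEMA2-like (Ha412HOChr16g0776711), an early enzyme of the pathway, fell by 0.58.

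Heat shock proteins and chaperones were higher for 46 of 101 homologs (45.5%) and lower for 22 (21.8%). The shares of all named genes tested were 28.2% and 33.0%. With a median of only 0.17, 16 members rose at least 2-fold and 5 fell as far, against 3.45% and 4.44% of all tested genes. HSFA6B-like (Ha412HOChr01g0003921), a heat stress factor, was at 0.0850, 0.576 and 1.01 CPM at dawn and at 23.4, 31.3 and 46.7 CPM at ZT4. This rise of 63.3-fold (log2 fold change 5.98, SE 0.137, adjusted p = 9.00e-22) separated all libraries of the times. The other HSFA6B-like gene (Ha412HOChr04g0184921) was expressed at dawn and rose by 2.29, from a median of 21.1 CPM to 111 CPM. A small heat shock protein gene (Ha412HOChr01g0017491, closest to AT2G29500) rose by 2.89. It lies among several apparent copies on the same chromosome, whose sequences were not compared, so its own share is uncertain. CPN60A-like (Ha412HOChr01g0039831), a chloroplast chaperonin, rose by 1.06. BAG1-like (Ha412HOChr02g0076941) and BAG3-like (Ha412HOChr07g0289781), cochaperones of HSP70, moved the other way, by -1.94 and -1.43, with no overlap between dawn and ZT4.

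Starch and sugar genes showed no common direction, with 11 of 37 homologs higher (29.7%), 14 lower (37.8%) and a median of -0.09. These shares were near those of all named genes tested, 28.2% and 33.0%. BAM3-like (Ha412HOChr17g0806941), the beta-amylase that degrades leaf starch at night in Arabidopsis, had the largest change. It was at 419, 492 and 565 CPM at dawn and at 20.5, 29.8 and 43.6 CPM at ZT4. The fall was 16.2-fold (log2 fold change -4.02, SE 0.092, adjusted p = 9.00e-22), and the times were far apart in every library. PHS2-like (Ha412HOChr05g0206211), the cytosolic glucan phosphorylase, fell by 1.65. GBSS1-like (Ha412HOChr04g0188451, closest to AT1G32900), SBE2.1-like (Ha412HOChr08g0337681) and SS3-like (Ha412HOChr01g0007711), which build starch, rose by 0.76, 0.53 and 0.50. Other starch genes, amylases among them, went both ways. AMY3-like (Ha412HOChr17g0821171), PWD-like and SEX4-like genes rose by 0.59, 0.24 and 0.20, and of 5 SEX1 homologs 3 rose and 1 fell. The BAM2 homolog fell by 0.41, and those of BAM1, BAM4 and the starch synthase SS2 were not called. Nitrate reductase NIA2-like (Ha412HOChr09g0401011), counted with this list, went from a median of 1060 CPM to 509 CPM (-1.02), and its neighbour Ha412HOChr09g0401021 fell by 1.98. Outside the list, the sugar carriers STP1-like (Ha412HOChr05g0202511) and SWEET12-like (Ha412HOChr16g0747601, called MTN3 in the annotation) fell by 2.41 and 2.62.

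**Figure D2:**
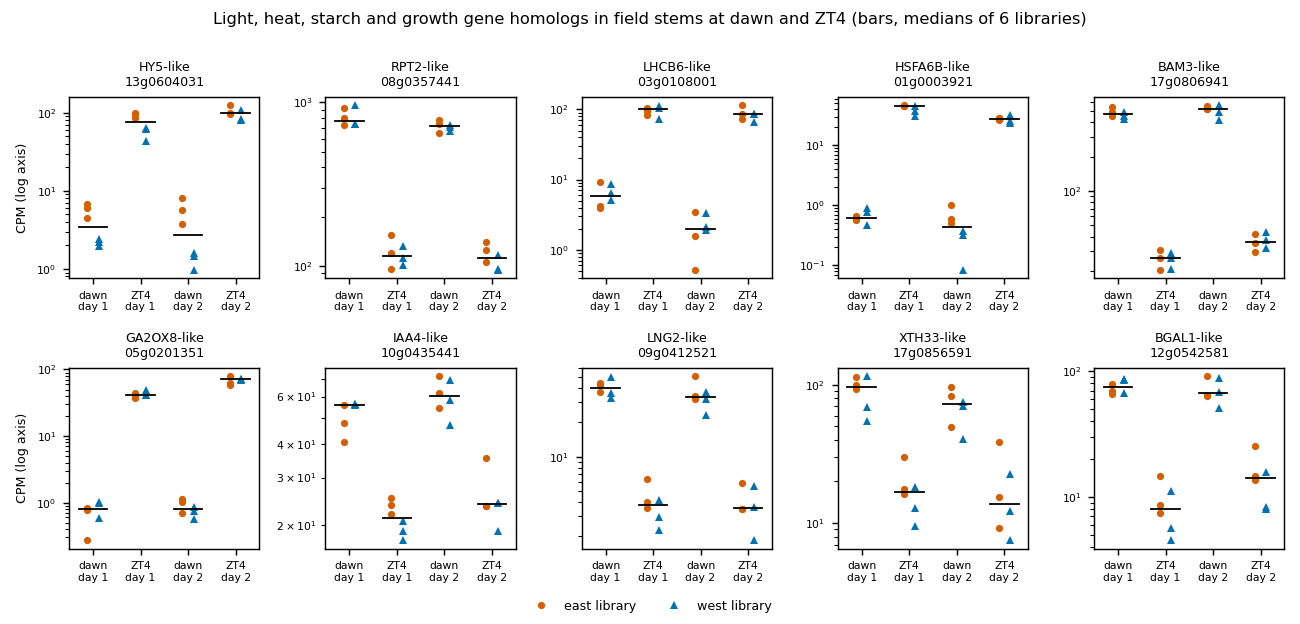
CPM on log axes of 10 light, heat, starch and growth gene homologs in each of the 24 libraries, by time and day (circles, east libraries; triangles, west libraries; bars, medians of 6 libraries; gene IDs without the prefix Ha412HOChr). HY5, LHCB6, HSFA6B and GA2OX8 homologs lie higher at ZT4 and RPT2, BAM3, IAA4, LNG2, XTH33 and BGAL1 homologs lower, with no overlap of the 12 and 12 libraries for any of them; at dawn, all 6 east libraries of HY5-like lie above all 6 west libraries.

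Of 67 auxin homologs, 41 were lower at ZT4 (61.2%, against 33.0% of all named genes tested) and 5 were higher (7.46%, against 28.2%). The other 21 were not called, and the median was -0.49. In the AUX/IAA family, short-lived repressors that auxin itself induces, 14 of 17 fell (82.4%) and 1 rose (5.88%). IAA4-like (Ha412HOChr10g0435441) was at 40.7, 56.0 and 71.6 CPM at dawn and at 17.5, 23.6 and 35.5 CPM at ZT4. It fell by 1.28 (SE 0.086, adjusted p = 2.25e-12) without overlap. IAA14-like (Ha412HOChr03g0143141) fell by 0.86, from a median of 236 CPM to 138 CPM. IAA16-like Ha412HOChr15g0697401, the most abundant member, was not called (-0.08, adjusted p = 0.326), whereas the less abundant Ha412HOChr16g0750251 rose by 0.89. Among the auxin response factors, 10 of 19 fell (52.6%) and 2 rose (10.5%). The ARF19 homologs Ha412HOChr09g0384131 and Ha412HOChr03g0103791 fell by 2.00 and 1.17. Of 12 PIN auxin transport genes, 7 fell (58.3%) and none rose. PIN7-like (Ha412HOChr01g0035481) was at 33.2, 54.2 and 74.7 CPM at dawn and at 10.3, 28.3 and 46.2 CPM at ZT4, with overlap (-1.12, SE 0.162, adjusted p = 1.73e-06). Of 17 SAUR genes, 9 fell (52.9%) and 2 rose (11.8%), and SAUR12-like (Ha412HOChr07g0303111) fell by 2.65 from a median of 3.26 CPM.

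Genes of cell wall loosening fell more often than they rose, with 23 of 40 lower (57.5%) and 3 higher (7.50%). The shares of all named genes tested were 33.0% and 28.2%. Of 22 xyloglucan endotransglucosylase/hydrolase (XTH) homologs, 18 fell (81.8%) and none rose, with a median of -0.92. Of 18 expansin homologs, 5 fell (27.8%) and 3 rose (16.7%). XTH33-like (Ha412HOChr17g0856591) was at 40.8, 78.7 and 116 CPM at dawn and at 7.49, 15.8 and 38.3 CPM at ZT4. It fell by 2.20 (SE 0.208, adjusted p = 1.55e-09), and the highest ZT4 library lay just under the lowest dawn library. XTR7-like (Ha412HOChr11g0492571) fell by 2.67 (SE 0.343), with wide and overlapping ranges of 8.73 to 72.9 CPM at dawn and 2.13 to 9.35 CPM at ZT4. EXPA8-like (Ha412HOChr14g0689301), an expansin, went from a median of 177 CPM to 52.0 CPM (-1.88), without overlap. EXPA1-like (Ha412HOChr09g0413391), the most abundant expansin, was not called (-0.15, adjusted p = 0.145), but was called lower with the east and west libraries of one number summed (-0.22, adjusted p = 0.0207), with library totals (adjusted p = 0.0462), without both libraries that stood apart (adjusted p = 0.0278) and in the west alone (-0.41, adjusted p = 0.00253). EXPA3-like (Ha412HOChr01g0017001) and EXPB2-like (Ha412HOChr13g0607061) rose by 0.49 and 0.91. A second EXPB2-like gene (Ha412HOChr08g0346521) rose by 1.12, the only expansin homolog called at least 2-fold higher. Of 30 cellulose synthase family genes 16 fell (53.3%) and 5 rose (16.7%). CSLC04-like (Ha412HOChr15g0707661), which makes the xyloglucan backbone, fell by 1.67. The primary wall cellulose synthases were mixed, since CESA1-like Ha412HOChr01g0006621 fell by 0.76 and CESA3-like Ha412HOChr04g0188301 rose by 0.65.

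Brassinosteroid and gibberellin genes fell for 21 of 41 homologs (51.2%) and rose for 9 (22.0%), with a median of -0.32. The shares of all named genes tested were 33.0% and 28.2%. At 2-fold the balance was the other way, with 6 members higher and 3 lower. GA2OX8-like (Ha412HOChr05g0201351), an enzyme that inactivates gibberellin precursors, was at 0.270, 0.803 and 1.12 CPM at dawn and at 37.0, 54.3 and 80 CPM at ZT4. Its rise of 6.09 (SE 0.121, adjusted p = 7.08e-23) was the largest of any list member. The gibberellin-responsive gene GASA6-like (Ha412HOChr14g0674661, closest to AT1G74670) was at 553, 913 and 1150 CPM at dawn and at 114, 173 and 254 CPM at ZT4. It fell by 2.27 (SE 0.148, adjusted p = 1.45e-12). The gibberellin receptor GID1C-like (Ha412HOChr14g0669491) and the DELLA repressors GAI-like (Ha412HOChr10g0475571) and RGA1-like (Ha412HOChr12g0547201) fell by 0.79, 1.21 and 0.71. BZR1-like (Ha412HOChr14g0662481), the brassinosteroid response factor, went from a median of 88.0 CPM to 41.0 CPM (-1.02), without overlap. DWF1-like (Ha412HOChr16g0795841), an enzyme of brassinosteroid synthesis, rose by 1.13, from a median of 104 CPM to 235 CPM.

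Ribosomal protein genes rose by small amounts. Of 216 homologs 171 rose (79.2%) and 3 fell (1.39%), against 28.2% and 33.0% of all named genes tested. The list median was 0.32, and 1 member rose at least 2-fold. RPS18C-like (Ha412HOChr01g0003471) was at 14.4, 18.2 and 20.8 CPM at dawn and at 27.5, 32.7 and 38.9 CPM at ZT4, a rise of 0.89 (SE 0.069, adjusted p = 3.50e-11). PGY2-like (Ha412HOChr11g0533061), a protein of the large subunit, rose by 0.64 with overlapping ranges. With library totals in place of TMM factors 156 members rose, 4 fell and the median was 0.27.

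The cell cycle list had no common direction: of 60 homologs 15 rose (25.0%) and 14 fell (23.3%), against 28.2% and 33.0% of all named genes tested. PCNA1-like (Ha412HOChr08g0344081), the sliding clamp of DNA replication, was at 25.9, 36.7 and 41.6 CPM at dawn and at 52.2, 68.4 and 89.8 CPM at ZT4, without overlap (1.01, SE 0.078, adjusted p = 3.47e-11). Among subunits of the MCM helicase, which opens DNA for replication, rises were 0.93 for MCM2-like (Ha412HOChr06g0261881), 0.78 for MCM7-like (Ha412HOChr06g0250371, called PRL in the annotation) and 0.68 for MCM5-like (Ha412HOChr05g0212581). Among the mitotic cyclins, falls were 0.74 for CYCB1;4-like (Ha412HOChr13g0627281), 0.80 for CYCB2;4-like (Ha412HOChr14g0634451) and 0.88 for CYCB2;3-like (Ha412HOChr16g0802841). CDC20.1-like (Ha412HOChr01g0040051), an activator of the complex that ends metaphase, fell by 0.69, from a median of 21.6 CPM to 13.6 CPM, whereas another copy, Ha412HOChr14g0634551, named after its values were seen, rose by 0.30. Of 25 core histone genes, 4 rose, 1 fell and 20 were not called.

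Genes of jasmonate, ethylene and abscisic acid and the WRKY factors were higher for 19 of 85 homologs (22.4%) and lower for 20 (23.5%), against 28.2% and 33.0% of all named genes tested. CCD1-like (Ha412HOChr17g0848221), a carotenoid cleavage enzyme counted with this list, rose from 60.6, 77.0 and 89.7 CPM to 245, 307 and 382 CPM (2.01, SE 0.056, adjusted p = 4.31e-20). EIN3-like (Ha412HOChr15g0726161), the main ethylene response factor, fell by 1.17, from a median of 65.3 CPM to 28.8 CPM. ABF2-like genes (Ha412HOChr09g0416641 and Ha412HOChr16g0763121), factors of abscisic acid response, rose by 1.00 and 0.72. WRKY3-like (Ha412HOChr15g0706581) fell by 1.29.

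Some of the largest changes fell outside the lists. LNG2-like (Ha412HOChr09g0412521), a member of the LONGIFOLIA family that promotes organ elongation, was at 23.2, 36.2 and 51.0 CPM at dawn and at 1.84, 3.59 and 6.40 CPM at ZT4 (-3.26, SE 0.150, adjusted p = 1.35e-15). Its relative LNG1-like (Ha412HOChr17g0822481) fell less, by 0.68, with overlap. The neighbouring beta-galactosidase genes Ha412HOChr12g0542581 and Ha412HOChr12g0542591, both BGAL1-like, fell by 2.74 and 2.78. The wall-associated kinase WAK2-like (Ha412HOChr10g0442621) fell by 2.77, and COL10-like (Ha412HOChr13g0585771, closest to AT5G48250), a B-box factor, by 3.26. Genes without an Arabidopsis name in the annotation used here moved as far. Ha412HOChr12g0555551 rose from 0.687, 0.993 and 1.35 CPM to 45.5, 58.4 and 66.3 CPM (5.83), and Ha412HOChr03g0094591 rose by 6.19 from a median of 0.206 CPM. Ha412HOChr17g0857741 fell from 209, 232 and 266 CPM to 10.6, 14.2 and 27.0 CPM (-3.95), and Ha412HOChr12g0540541 fell by 3.78. The most abundant annotated transcript at dawn, LTP1-like (Ha412HOChr15g0694271), a lipid transfer protein of the epidermis, was at 2290, 3310 and 4040 CPM, and that at ZT4, THI1-like (Ha412HOChr15g0741101), a thiamine synthesis enzyme, at 2900, 3990 and 4400 CPM. THI1-like rose by 0.61. LTP1-like had a difference of -0.21 (adjusted p = 0.0385) that was not called when any one of 14 libraries was left out, on day 2 or either side alone, or by limma with correlated east and west libraries (adjusted p = 0.0583).

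**Figure D3:**
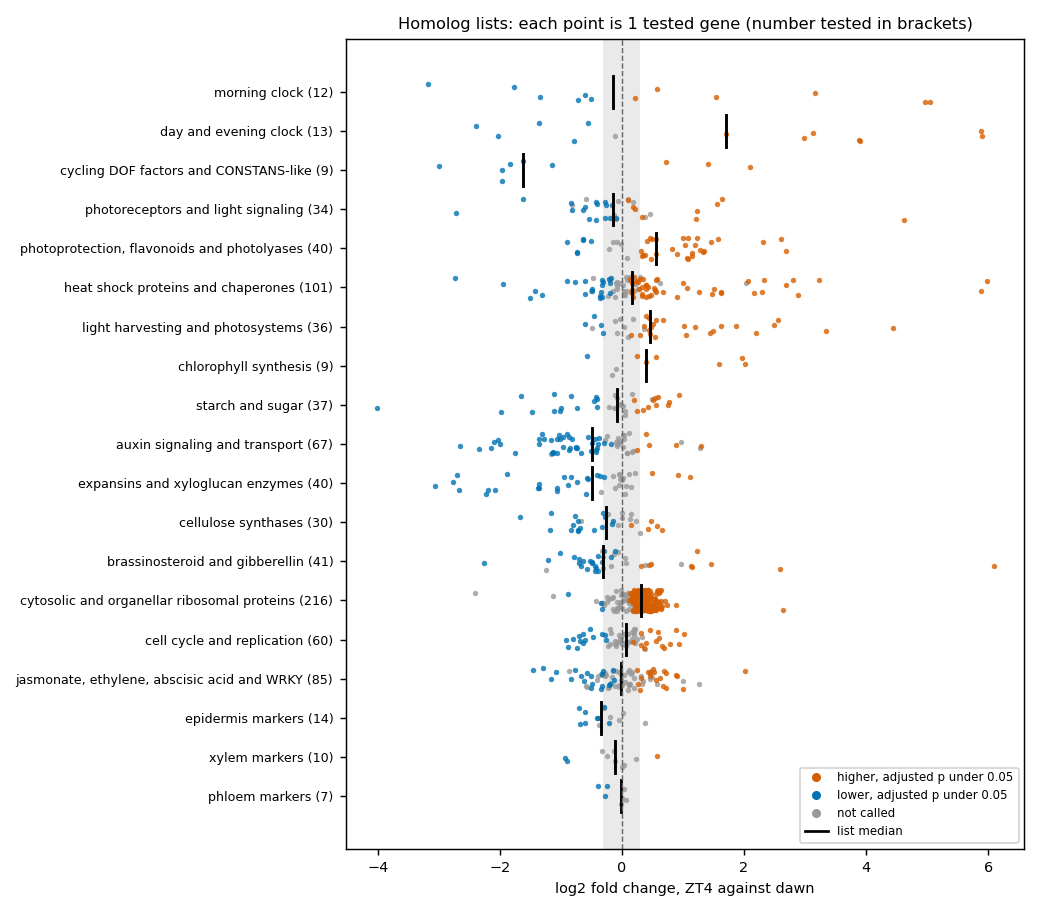
Log2 fold changes of ZT4 against dawn for every tested member of 19 homolog lists (orange, higher and blue, lower at an adjusted p under 0.05; grey, not called; black bar, list median; dashed line and grey band, median and middle quartiles of all tested genes). Ribosomal protein genes crowd to the right of 0 (171 of 216 called higher) and XTH and auxin genes to the left, while the clock lists spread from -3.17 to 5.91.

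Markers of the tissues in a peel were counted in the same way. Of 14 epidermis markers 8 fell (57.1%, against 33.0% of all named genes tested) and none rose, with a median of -0.34, and their summed level was 2460, 3480 and 4250 CPM at dawn and 1930, 2870 and 4070 CPM at ZT4. Most of this sum was LTP1-like (Ha412HOChr15g0694271), with a mean of 2947 CPM over the 24 libraries, so the sum says little about the other markers. LTP1-like is among the 8 that fell, and its call was lost when any one of 14 libraries was left out. Xylem markers summed to 104, 151 and 173 CPM at dawn and 115, 149 and 227 CPM at ZT4, with 1 of 10 higher and 2 lower. Phloem markers summed to 443, 590 and 807 CPM and 370, 527 and 730 CPM, with 3 of 7 lower (42.9%) and none higher. Of all named genes tested, 28.2% were higher. The ranges of all 3 sums overlapped between the times, markers of all 3 tissues were detected in every library, and the part of tissue content in the changes above was not tested. The PCR reference genes EF1A-like (Ha412HOChr11g0495951) and UBC21-like (Ha412HOChr06g0274091) changed by 0.25 and 0.11, of which the first was called.

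The other field times show where these 2 times lie in the daily course of the named genes. Of 92 named genes that rose, 46 had their highest mean CPM of the 6 sampled times of day at ZT4, 29 at ZT8 and 16 at ZT12. LNK1-like and HY5-like (Ha412HOChr13g0604031) belonged to the first group, HSFA6B-like (Ha412HOChr01g0003921) to the second, and PRR7-like (Ha412HOChr14g0679591) and CDF1-like (Ha412HOChr05g0235011) to the third. Of 111 that fell, 56 were highest at dawn, among them LHY-like, RPT2-like and BAM3-like, and 43 were lowest at ZT4. TOC1-like, PRR5-like and the 3 mitotic cyclins given above were highest at ZT12 and lowest at ZT4. Many of these genes were named for a large change between dawn and ZT4, which favours peaks and troughs at these times. The counts therefore do not describe all genes, and no test was made of the other times.

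The change from dawn to ZT4 was seen on both days. On day 1, 7453 genes rose and 7484 fell (45.7% of those tested in either direction), and on day 2, 7055 rose and 6769 fell (42.3%). Of 10325 genes called on both days, 10264 changed in the same direction. A further 4612 genes were called on day 1 only and 3499 on day 2 only. A difference between days in the size of the change was called for 366 genes (1.12%), with a median difference of 0.64. The signs agreed on both days for 196 of them, of which 139 changed more on day 1 and 57 more on day 2, and were opposite for 170. This count was not stable, since it was 161 without both libraries that stood apart and 205 to 649 when single libraries were left out. ELIP2-like (Ha412HOChr03g0133761) was at 192, 283 and 332 CPM at dawn of day 1 and at 78.0, 101 and 126 CPM at ZT4, and at 164, 241 and 290 CPM and 130, 178 and 214 CPM on day 2. The ranges thus separated on day 1 (-1.46) and overlapped on day 2 (-0.36, adjusted p of the difference 0.00136). CDF1-like (Ha412HOChr05g0235011) rose by 1.68 on day 1 and by 2.62 on day 2 (adjusted p = 0.00982), and LHCB6-like (Ha412HOChr03g0108001) by 3.91 and 5.30 (adjusted p = 0.0422). LOX2-like (Ha412HOChr13g0606111), an enzyme of jasmonate synthesis, changed by 0.89 on day 1 and by -0.51 on day 2 (adjusted p = 0.00101). HSFA6B-like (Ha412HOChr04g0184921) rose more on day 1, by 2.53 against 2.04 (adjusted p = 0.00622).

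**Figure D4:**
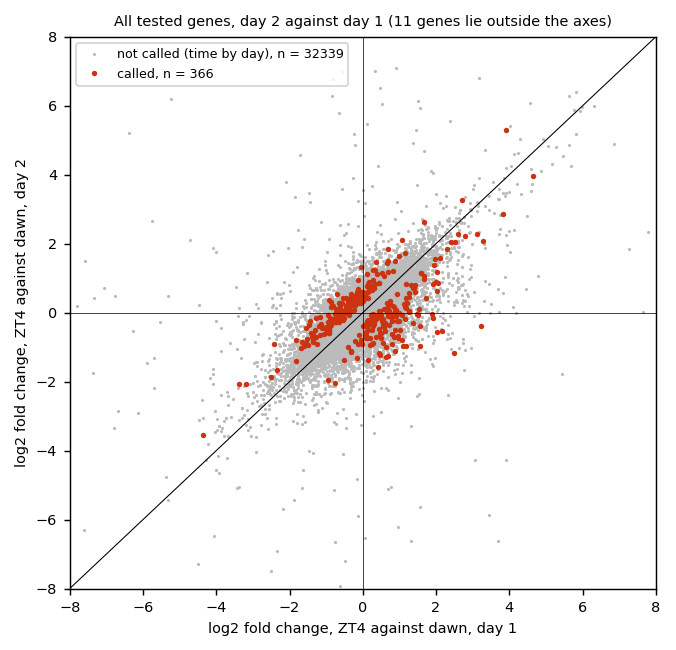
Log2 fold change of ZT4 against dawn on day 2 (vertical axis) against that on day 1 (horizontal axis) for all tested genes, with the line of equal change (grey, not called; red, the 366 genes called for a difference between days; 11 genes lie beyond the axes). The strongest rises and falls lie along the line of equal change, and the called genes form a band on each side of it.

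The change was called on both sides of the stem. On the east side 6928 genes rose and 6994 fell (42.6% in either direction), and on the west side 6866 rose and 6780 fell (41.7%). East and west libraries of the same number deviated together from their group means in all 12 pairs, and the 2 sides came from the same 6 plants at each time, but the sources used here do not state that a number marks the same plants on both sides. With these libraries treated as unpaired, a difference between sides in the change from dawn to ZT4 was called for 3 genes (0.00917%), and 2452 genes had an unadjusted p under 0.05. With each pair as a block, a fit chosen after the data had been seen, it was called for 189 genes (0.578%), 95 with a higher and 94 with a lower value in the west. Leaving out single pairs gave 99 to 268 genes, and the count fell by over 1.5 times without the ZT0 pair of replicate 1, the ZT4 pair of replicate 2 and the ZT28 pairs of replicates 2 and 3 (117, 112, 109 and 99). The morning, day and evening clock lists held no called gene. In the next paragraphs, fold changes of each side come from the unpaired fit and adjusted p-values of their difference from the paired fit. None of the genes named there was called for a difference between sides in the unpaired fit.

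Of 60 cell cycle homologs, 9 were called in this paired test, all with a higher value of west minus east. They were CDC20.1-like, CDKB2;2-like and B-type cyclin genes. Several share the same best Arabidopsis match, and reads may be divided between such copies, so the 9 may not be separate members. The CDC20.1-like copy Ha412HOChr14g0634551 changed by 0.10 in the east and 0.50 in the west, whereas the others were lower at ZT4 on both sides. Over all tested genes the share called was 0.578%, and the share over genes with an Arabidopsis name was not computed. CDC20.1-like (Ha412HOChr01g0040051) was at 20.4, 22.3 and 31 CPM in the 6 east libraries of dawn and at 8.67, 11.7 and 14.7 CPM in those of ZT4. In the west it was at 13.9, 20.2 and 22.9 CPM and at 13.5, 15.5 and 16.9 CPM. The east side thus changed without overlap and the west side with overlap (-1.06 against -0.33, adjusted p = 0.0156). CYCB2;4-like (Ha412HOChr14g0634451) fell by 1.14 in the east and changed by -0.47 in the west (adjusted p = 0.0182), and CYC1BAT-like (Ha412HOChr01g0011571), a further B-type cyclin, by -1.09 and -0.32 (adjusted p = 0.0161). TPX2-like (Ha412HOChr17g0836141) and AUR1-like (Ha412HOChr06g0259691), which act on the mitotic spindle, had -1.31 against -0.47 and -0.79 against -0.12 (adjusted p = 0.00383 for each). They were not on the list and are named by their small p.

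Of 67 auxin homologs, 5 were called, against 0.578% of all tested genes, and all had a lower value in the west. Several of the 5 were SHY2-like copies, between which reads may be divided. PIN7-like (Ha412HOChr01g0035481) had like levels on both sides at dawn, 49.8, 54.2 and 66.0 CPM in the east and 33.2, 54.3 and 74.7 CPM in the west. At ZT4 it was at 30.2, 36.5 and 46.2 CPM in the east and at 10.3, 16.4 and 26.4 CPM in the west, without overlap between the sides (-0.60 against -1.68, adjusted p = 0.0218). SHY2-like (Ha412HOChr04g0178131), an AUX/IAA repressor, went from a median of 65.3 CPM to 39.4 CPM in the east and from 79.8 CPM to 29.3 CPM in the west, and is named after its values were seen. HY5-like (Ha412HOChr13g0604031) had separate ranges at dawn, with 3.79, 5.83 and 8.14 CPM in the east and 0.978, 1.78 and 2.40 CPM in the west. At ZT4 its ranges overlapped between sides, 86.2, 97.2 and 125 CPM in the east and 43.5, 72.2 and 108 CPM in the west, and the rise was 4.08 and 5.34 (adjusted p = 0.0459).

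**Figure D5:**
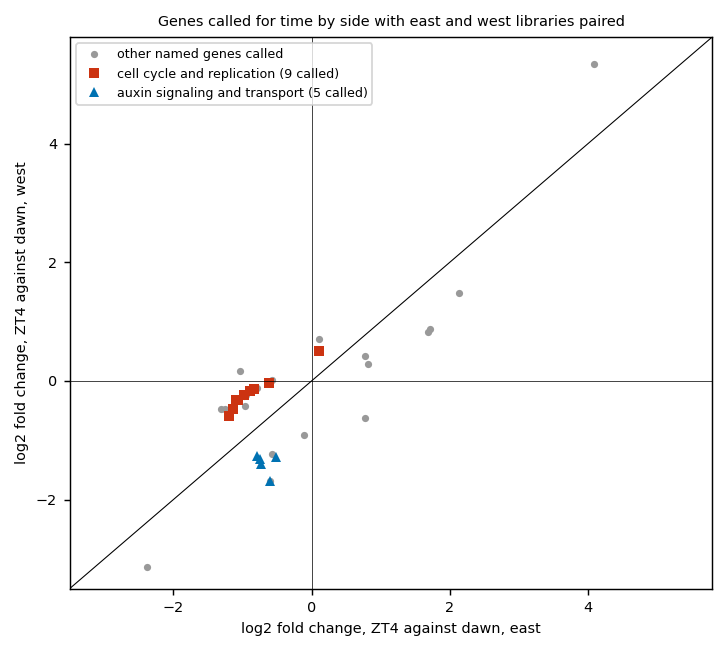
Log2 fold change of ZT4 against dawn in the west (vertical axis) against that in the east (horizontal axis) for named genes and list members called for a difference between sides with the libraries paired (red squares, cell cycle list; blue triangles, auxin list; grey, other named genes; line, equal change). The 9 cell cycle genes lie above the line and the 5 auxin genes below it.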

How the data were processed

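RNA of stem peels was sequenced as polyA libraries with 50-bp single-end reads. The authors filtered the reads with the FASTX toolkit and quantified them with Salmon 1.4.0 against HA412-HO v2 transcripts of the Eugene annotation, and deposited estimated counts per gene. The submitters' processing notes also name edgeR and Cufflinks 2.2.1. Estimated counts can be split between near-identical genes, and no genome of this build was used here.

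The estimated counts of 24 field libraries were rounded to whole numbers. Genes that reached 10 counts in 3 or more libraries entered the fits, scaled by TMM and fitted with edgeR 4.0.16 in R 4.3.3 (quasi-likelihood test, Benjamini-Hochberg adjustment over all 32705 genes), with side and day as terms. Fits with one change per day or per side gave the differences between days and sides. The shallowest library limits the precision of genes near 1 CPM. The scripts were tested on simulated data. Alternatives were RLE factors, library totals, no count filter, DESeq2 1.42.0, limma 3.58.1 with correlated libraries, a fit over all 72 field libraries, single days and sides, summed east and west libraries, replicate blocks and left-out libraries.

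Arabidopsis names are best protein matches from the study's tables, which were partly chosen on these libraries. Named genes were all members of the clock, CDF and COL lists and of a list of genes named by the study; of each other list up to 5 members a direction with the largest called change at a mean of at least 10 CPM, and the most abundant member; the 15 annotated and 2 unannotated genes a direction with the largest called change and no overlap; for the differences between days and sides, without pairing, the 5 annotated genes a direction with the smallest p; and the most abundant annotated gene at each time. For the paired fit, the 6 annotated genes a direction with the smallest p were added, and these and other genes in its account were named after their values were seen. Members of lists described by counts carry no test of the list. The members and lists were chosen with earlier results of these data known.

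Replicate numbers were checked for pairing by the correlation of deviations from group means. East and west libraries of the same number, time and day correlated in 12 of 12 pairs (0.12 to 0.55), and both sides were peeled from the same 6 plants at each time, though no source used here says that a number marks the same plants. Dawn and ZT4 libraries of the same number exceeded 0.1 in 3 of 12 pairs. No 2 libraries had equal values. One gene that the rule names is not reported here. The chamber tables were not used here.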

Additional observations from a re-analysis of the deposited data

Results flagged for a closer look

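Named genes are listed here when a test of the difference itself was past an adjusted p of 0.05, either between days or between sides of the stem. Values are differences of log2 fold changes (ZT4 against dawn), day 2 minus day 1 or west minus east. Groups here have 3 or 12 libraries, so single samples were not tested as extreme values.

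Between days, the difference was 1.39 for LHCB6-like (Ha412HOChr03g0108001), 1.10 and 0.86 for ELIP2-like (Ha412HOChr03g0133761 and Ha412HOChr03g0133631), 1.02 and 0.54 for ELIP1-like (Ha412HOChr03g0133781 and Ha412HOChr03g0133811), 0.52 for GUN5-like (Ha412HOChr10g0446461) and 0.83 for ACHT4-like (Ha412HOChr13g0597701), a chloroplast thioredoxin. It was 0.94 for CDF1-like (Ha412HOChr05g0235011), 0.38 for RVE8-like (Ha412HOChr07g0311811) and 0.42 for COL2-like (Ha412HOChr14g0673251), of which the last 2 fell less on day 2. The sugar carrier SWEET12-like (Ha412HOChr16g0747601) had 1.13 and the unannotated Ha412HOChr17g0857741 had 0.84, both also falling less on day 2. Lower values on day 2 were found for LOX2-like (Ha412HOChr13g0606111, -1.40), LOL1-like (Ha412HOChr17g0807231, -1.30), HSFA6B-like (Ha412HOChr04g0184921, -0.49), GAE6-like (Ha412HOChr02g0090791, -0.52), a pectin precursor enzyme, and AT1G07350-like (Ha412HOChr08g0372011, -0.56). AT5G42760-like (Ha412HOChr16g0760851) had 1.29, AT5G13650-like (Ha412HOChr10g0446121) 0.79 and AT5G19850-like (Ha412HOChr11g0521241) 0.58. Dawn libraries of day 2 included the shallowest library, and without both libraries that stood apart 161 in place of 366 genes were called. Its part in single values was not tested.

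Between sides, the unpaired fit called AT5G42690-like (Ha412HOChr04g0158171), which fell by 0.57 in the east and by 1.24 in the west, a difference of -0.67. The paired fit, chosen after the data had been seen, called further named genes. Those of cell division had positive differences, meaning a fall further in the east: 0.74 and 0.68 for CDC20.1-like (Ha412HOChr01g0040051 and Ha412HOChr10g0451031), 0.72 for CYC1BAT-like (Ha412HOChr01g0011571), 0.64 for CYCB2;4-like (Ha412HOChr14g0634451), 0.57 for CYCB2;3-like (Ha412HOChr16g0802841), 0.82 for TPX2-like (Ha412HOChr17g0836141), 0.64 for AUR1-like (Ha412HOChr06g0259691) and 0.72 for TES-like (Ha412HOChr03g0092361), a kinesin of the dividing cell. The tubulin TUA6-like (Ha412HOChr17g0823471) had 0.57, the kinase IMK2-like (Ha412HOChr13g0607801) 0.53, ROPGEF5-like (Ha412HOChr09g0392801) 0.75 and AT4G15830-like (Ha412HOChr13g0614411) 0.72. HY5-like (Ha412HOChr13g0604031) had 1.16, AT3G28345-like (Ha412HOChr07g0317651) 1.19 and AT3G08640-like (Ha412HOChr01g0000561) 0.59. Negative differences were found for PIN7-like (Ha412HOChr01g0035481, -1.08), BRXL3-like (Ha412HOChr04g0145971, -0.84), BGAL1-like (Ha412HOChr12g0542581, -0.68) and the starch enzyme AMY3-like (Ha412HOChr17g0821171, -0.37). The remaining ones were AT5G66900-like (Ha412HOChr15g0736551, -1.38), AT2G36885-like (Ha412HOChr13g0602431, -0.86), AT3G22750-like (Ha412HOChr11g0509151, -0.82), AT2G12190-like (Ha412HOChr16g0796371, -0.66) and AT5G55220-like (Ha412HOChr13g0610501, -0.56).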

How the results depend on the processing

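The counts of genes that rose or fell, at any size or at 2-fold, stayed within 1.5 times of their values under every alternative run, and leaving out single libraries gave 8748 to 9075 higher and 8658 to 8962 lower genes. Of 203 named genes called, 166 were called in the same direction under every alternative and without every single library. Direction turned for CHLI2-like Ha412HOChr16g0782741 (-0.008 on day 1 alone), GAE6-like Ha412HOChr02g0090791 (-0.081) and AT5G19850-like Ha412HOChr11g0521241 (0.052) on day 2 alone, and AT3G28345-like Ha412HOChr07g0317651 (0.158 in the west alone). Genes whose libraries did not overlap were by construction more numerous with fewer libraries: 4312 higher and 4304 lower on day 1, 3293 and 3383 on day 2, 3280 and 3420 in the east, 3255 and 3227 in the west, and 4294 and 4131 with summed pairs. The difference between days was called for 631 genes with the replicate block of dawn and ZT4 libraries of one number within a day, which share only a number, 161 without both libraries that stood apart and 920 with DESeq2. Leaving out 1 library gave 205 to 649, with changes of over 1.5 times without west ZT0 replicate 3 (224), west ZT4 replicate 1 (242), east ZT24 replicate 1 (205), west ZT24 replicate 2 (649), west ZT24 replicate 3 (225) and east ZT28 replicate 3 (230). The difference between sides was called for 7 genes with that block, 1 without the libraries that stood apart, 189 with the replicate block of east and west libraries, 35 in the fit over all 72 libraries, 89 with DESeq2, 1 to 10 without single libraries, and 99 to 268 without single pairs in the paired fit. In the lists, 2 chlorophyll genes fell under library totals, and 2 xylem markers rose and 1 fell without the libraries that stood apart. The cause of these shifts was not tested. The block of dawn and ZT4 numbers changed no other count of calls by over 1.5 times, and the block of east and west libraries can be set only on the difference between sides.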

Other observations

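Several strong changes belong to no list. ACD32.1-like (Ha412HOChr16g0795931), a small heat shock protein of the peroxisome, rose by 3.06 on the log2 scale, from a median of 4.55 CPM to 42.1 CPM, and the bZIP gene AT1G77920-like (Ha412HOChr05g0243831) by 2.75, from 3.16 to 24.9 CPM. AT2G15020-like (Ha412HOChr03g0113021) rose by 3.66, from 1.80 to 22.6 CPM. The RNA-binding gene AT3G54770-like (Ha412HOChr07g0319761) fell by 3.67, from 22.0 to 1.34 CPM, AT3G29240-like (Ha412HOChr09g0412861) by 2.61 and AT2G44500-like (Ha412HOChr16g0784861) by 2.43. All 12 libraries of one time lay on one side of the 12 of the other for each of these 6 genes.

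Of 30 genes that the study names, chosen by it partly on these libraries, 8 rose and 20 fell. Besides those described above, the potassium channel KAT1-like (Ha412HOChr04g0179931) fell by 0.55, from a median of 52.1 CPM to 34.8 CPM without overlap. BIM1-like (Ha412HOChr02g0064141), a partner of brassinosteroid factors, fell by 0.65, and NPY8-like (Ha412HOChr12g0580251), a relative of NPH3, by 0.20. The shade marker HB2-like (Ha412HOChr13g0623611) rose by 0.33 and the ribosomal S15a-like (Ha412HOChr05g0204731) by 0.57, both with overlap. NPY8-like and HB2-like were not called on day 1 or in the east alone. EBF1-like (Ha412HOChr01g0047431), which promotes degradation of EIN3, was not called (0.11, adjusted p = 0.252).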
